A study of Mus musculus with 6 samples.

Results

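The 38 genes described here code for the enzymes that make, recycle and use glutathione and thioredoxin, the enzymes that remove superoxide and peroxides, the NRF2 and KEAP1 proteins that control many of them, and the sodium-coupled vitamin C transporters. They were taken by name from a list, and all 38 were found among the 20325 gene symbols measured. Levels came from RNA sequencing of 6 libraries of mouse pre-iPSCs, which are partially reprogrammed cells. The design crossed 2 lines, pre3 and pre2-2, with 3 treatments, siTet1, control siRNA and no transfection, and each combination gave 1 library. Tet1 codes for a DNA-demethylating enzyme of the family whose activity vitamin C is known to raise, and the series asked what its knockdown does to expression in vitamin C medium.

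Both lines derived from embryonic fibroblasts of OG2 mice, a strain with a GFP transgene under the Pou5f1 promoter, on a mixed background labelled 129SVJ, C57B6 and CBA, and were used at passage 10. All 6 libraries, the untransfected ones included, came from cells given vitamin C at 50 µg/ml in a mouse ES cell medium containing LIF, so no library without vitamin C was compared. The series text puts the vitamin C 16 h after transfection and the RNA 32 h after that, whereas the sample labels give 48 h in all with 36 h of vitamin C. One characteristic reads Tet siRNA where the titles read siTet1, and the source is written as MEFs where the series text names pre-iPSCs. Separate cultures for the libraries of a line are not mentioned in the labels. With 1 library per line and treatment, the p-values of the main fit contain no spread between replicates. They rest on how far the 2 lines disagreed over the treatments and on a prior over all genes. Technical spread cannot be told apart from that disagreement. A line stands for 1 isolate of cells, and a difference between pre3 and pre2-2 is a difference between these isolates.

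As background, glutathione is made from glutamate, cysteine and glycine by glutamate-cysteine ligase and glutathione synthetase, is spent by glutathione peroxidases and transferases, and is returned to its reduced form by glutathione reductase with NADPH. Thioredoxin and its NADPH-dependent reductase keep the peroxiredoxins working, and sulfiredoxin rescues peroxiredoxins that have been over-oxidised by peroxide. KEAP1 marks the transcription factor NRF2, the product of Nfe2l2, for destruction until oxidants or electrophiles modify it; NRF2 with a small MAF partner then binds antioxidant response elements. Vitamin C enters cells as ascorbate through the SLC23 transporters or, once oxidised to dehydroascorbate, through glucose carriers of the SLC2 family, and glutathione-dependent enzymes can reduce it again inside the cell.

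The stretches before the transcription starts of 4 members are shown because Srxn1, Nqo1 and Gpx8 were the members called higher with siTet1 than in untransfected cells, and Prdx1 was the member with the highest level. Each line holds the 250 bases before the start, 5′ to 3′ on the gene's strand, from RefSeq on GRCm38.p6, and capitals mark a match to TGANTCAGC or TGACNNNGC on either strand. The positions are chr2:152105274-152105523 on the plus strand for Srxn1, chr8:107403206-107403455 on the minus strand for Nqo1, chr13:113046389-113046638 on the minus strand for Gpx8 and chr4:116685349-116685598 on the plus strand for Prdx1.
Srxn1: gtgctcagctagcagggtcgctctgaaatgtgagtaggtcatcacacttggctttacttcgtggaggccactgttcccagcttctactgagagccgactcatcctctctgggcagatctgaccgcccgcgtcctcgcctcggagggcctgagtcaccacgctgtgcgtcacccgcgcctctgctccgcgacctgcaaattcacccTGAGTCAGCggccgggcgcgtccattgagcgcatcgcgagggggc
Nqo1: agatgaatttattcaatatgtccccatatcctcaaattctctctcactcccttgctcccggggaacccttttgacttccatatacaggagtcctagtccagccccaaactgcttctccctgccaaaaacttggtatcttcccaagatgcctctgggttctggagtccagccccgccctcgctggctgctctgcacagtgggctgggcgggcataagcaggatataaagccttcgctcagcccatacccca
Gpx8: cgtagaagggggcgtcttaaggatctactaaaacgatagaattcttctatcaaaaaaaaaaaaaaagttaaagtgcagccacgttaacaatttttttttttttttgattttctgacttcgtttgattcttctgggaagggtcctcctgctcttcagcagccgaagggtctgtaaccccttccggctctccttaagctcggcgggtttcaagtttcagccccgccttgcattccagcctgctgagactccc
Prdx1: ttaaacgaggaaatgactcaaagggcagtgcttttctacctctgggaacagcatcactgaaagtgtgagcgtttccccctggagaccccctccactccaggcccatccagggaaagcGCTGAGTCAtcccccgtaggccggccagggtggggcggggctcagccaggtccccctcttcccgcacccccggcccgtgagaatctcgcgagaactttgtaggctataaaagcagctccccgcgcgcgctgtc

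TGACNNNGC is the core of the antioxidant response element, and it was searched on both strands of windows running from 250 bases before to 50 bases after each start. Of the 31 members with a window, 8 held it (25.81%), against 15.23% of the other genes in the files that have one and 12.39% of all windows. These were Gclm, Prdx1, Txnrd1, Srxn1, Sod1, Nfe2l2, Gstm5 and Mgst1. The TGACNNNGC match of Srxn1 lies after the start, at bases 29 to 37 on the opposite strand, outside the stretch shown above. Txnrd1 and Mgst1 have more than 1 window each, and not every window held the core. TGANTCAGC, a form known for NRF2 with a small MAF partner, was added after these windows were seen, so its shares describe letters and support nothing; it is in 3 of the 31 members (9.677%), namely Prdx1, Srxn1 and Gstp1, against 1.358% of the other genes and 1.187% of all windows. In Srxn1 it reads TGAGTCAGC on the gene's strand from position -45 to -37, where -1 is the base before the start. In Prdx1 it reads TGACTCAGC on the opposite strand from -133 to -125 and counts for both motifs, since they overlap there. Neither motif is in these windows of Nqo1 and Gpx8, and sequence farther from the start was not searched. The members without a window were Gclc, Gsr, Prdx6, Sod3, Hmox1, Gsta4 and Slc23a1. A match describes letters only, and binding was not measured.

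The libraries held 1868640 to 2582803 expected counts, and a floor of 3 counts came to 1.16 to 1.61 CPM. Libraries of the same line correlated more closely (Pearson's r across genes 0.953 to 0.975) than libraries of different lines (0.883 to 0.938). Tet1 stood at 159 and 154 CPM in siTet1-transfected pre3 and pre2-2, against 251 and 246 CPM with control siRNA and 205 and 250.2 CPM without transfection. Its log2 difference was -0.67 from control siRNA (SE 0.13, edgeR adjusted p = 0.0043) and -0.54 from untransfected cells (SE 0.13, edgeR adjusted p = 0.00951). With the pre2-2 siTet1 library left out, the difference from control siRNA was -0.57 (edgeR adjusted p = 0.316). With the control siRNA library of pre3 left out, it was -0.60 (edgeR adjusted p = 0.229), so both ended the call. Of the 10 listed pluripotent-cell markers, Pou5f1, Tdgf1 and Sox2 were abundant, while Nanog, Zfp42, Esrrb and Lin28a had at most 11 counts in any library. The 10 summed to 7696, 6946 and 8031 CPM in pre3 with siTet1, control siRNA and no transfection, against 2580, 2005 and 2317 CPM in pre2-2. Most of the pre3 sums was Pou5f1, at 6092, 5794 and 6619 CPM, against 1146, 1042 and 1208 CPM in pre2-2. Sox2 was lower in pre3 under each treatment, at 435, 382 and 396 CPM against 465, 415 and 496 CPM. Utf1 was also lower in pre3 under each treatment, at 5.85, 2.67 and 3.59 CPM against 15.0, 8.10 and 7.77 CPM. Of the 6 tested, 4 were called higher and 1 lower in pre3, beside 14.4% and 15.8% of all genes tested. The 10 fibroblast markers summed to 1053, 942 and 769 CPM in pre3 with siTet1, control siRNA and no transfection, against 2960, 3643 and 1480 CPM in pre2-2, and 8 of the 9 tested were called lower in pre3. The 9 tested fibroblast markers had reads in every library, with Col1a1 at 367 to 2054 CPM. Lum, the fibroblast marker too low to be tested, had no read in either untransfected library or in the pre3 control siRNA library. The 4 erythroid markers summed to at most 0.777 CPM. The 9 interferon-response genes tested were all called higher with control siRNA than without transfection, and 8 of them lower with siTet1 than with control siRNA. In such bulk samples, fewer cells of a type and less RNA per cell cannot be told apart.

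The members took 0.501 to 0.543% of all counts and summed to 8262, 8177 and 8079 TPM in pre3 with siTet1, control siRNA and no transfection, against 8756, 8128 and 7804 TPM in pre2-2. TPM is a level per transcript length and is used below to set genes against each other, while CPM sets libraries against each other. The single most abundant member was Prdx1, a cytosolic peroxiredoxin that reduces hydrogen peroxide, at a mean of 1211 TPM over the 6 libraries, above 99.43% of the genes measured. Next were Sod1, the copper and zinc superoxide dismutase of the cytosol, at 974 TPM, and Gsta4, a transferase that conjugates the lipid peroxidation product 4-hydroxynonenal to glutathione, at 805 TPM. The range of Gsta4, 566 to 1069 TPM, overlapped that of Sod1, 865 to 1087 TPM, so the order of these neighbours was not fixed in every library. Gsto1, an omega-class transferase that can also reduce dehydroascorbate, averaged 585 TPM and Gpx1, the main cytosolic glutathione peroxidase, 563 TPM.

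By role, the 6 peroxiredoxins summed to 2262 to 2374 TPM and the 7 glutathione transferases to 1730.1 to 2299 TPM. The superoxide dismutases with catalase summed to 1079.6 to 1283 TPM, the glutathione peroxidases to 978 to 1174 TPM, the thioredoxin, glutaredoxin and sulfiredoxin genes to 834 to 1039.7 TPM and the genes of glutathione synthesis and reduction to 385 to 453 TPM. Nfe2l2, Keap1, Nqo1 and Hmox1 together reached 180 to 289 TPM, and the 2 vitamin C transporters 16.8 to 21.6 TPM. The peroxiredoxin sum thus spanned a narrow band, and that of Nfe2l2, Keap1, Nqo1 and Hmox1 a wider one for its size.

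Within the groups, the levels fell off steeply. Among the peroxiredoxins, the cytosolic Prdx2 averaged 519 TPM, Prdx5, found in several compartments, 201 TPM, Prdx6, which uses glutathione and also acts on phospholipids, 165 TPM, the mitochondrial Prdx3 142 TPM and the endoplasmic reticulum enzyme Prdx4 73.4 TPM. Among the glutathione peroxidases, Gpx4, which reduces lipid hydroperoxides in membranes, averaged 412 TPM, Gpx8 and Gpx7, both of the endoplasmic reticulum, 37.4 and 20.1 TPM, and the secreted Gpx3 35.0 TPM. Cytosolic thioredoxin (Txn1) and mitochondrial thioredoxin (Txn2) averaged 433 and 208 TPM, their reductases Txnrd1 and Txnrd2 219 and 16.9 TPM, sulfiredoxin (Srxn1) 29.4 TPM and glutaredoxin (Glrx) 17.5 TPM. Transcripts of the cytosolic and mitochondrial thioredoxins were therefore at similar orders of magnitude, while that of the cytosolic reductase stood far above that of the mitochondrial one. The mitochondrial dismutase Sod2 averaged 138 TPM and catalase (Cat), the peroxisomal peroxide remover, 68.0 TPM, and the extracellular Sod3 had 1 to 4 counts in every library, at about the floor.

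For glutathione itself, the reductase Gsr averaged 191 TPM, the synthetase Gss 93.3 TPM, and the modifier and catalytic subunits of glutamate-cysteine ligase, Gclm and Gclc, 77.0 and 45.3 TPM. The other transferases ran from Gstp1, of the pi class, at 509 TPM to the mu-class genes Gstm5, Gstm1 and Gstm2 at 57.9, 44.0 and 28.1 TPM and the membrane-bound Mgst1 at 17.4 TPM. Hmox1, the inducible heme oxygenase, averaged 105 TPM, Keap1 50.8 TPM, Nfe2l2 48.4 TPM and the quinone reductase Nqo1 43.5 TPM. The highest library exceeded the lowest by 1.08 times for Prdx1, 1.16 times for Keap1 and 1.17 times for Sod2, the narrowest spans. Among members above the floor the widest were 7.54 times for Gpx8, 5.30 times for Gpx7, 5.0 times for Nqo1, 4.50 times for Srxn1, 4.39 times for Gstm5, 4.34 times for Glrx and 3.80 times for Gpx3.

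**Figure D1:**
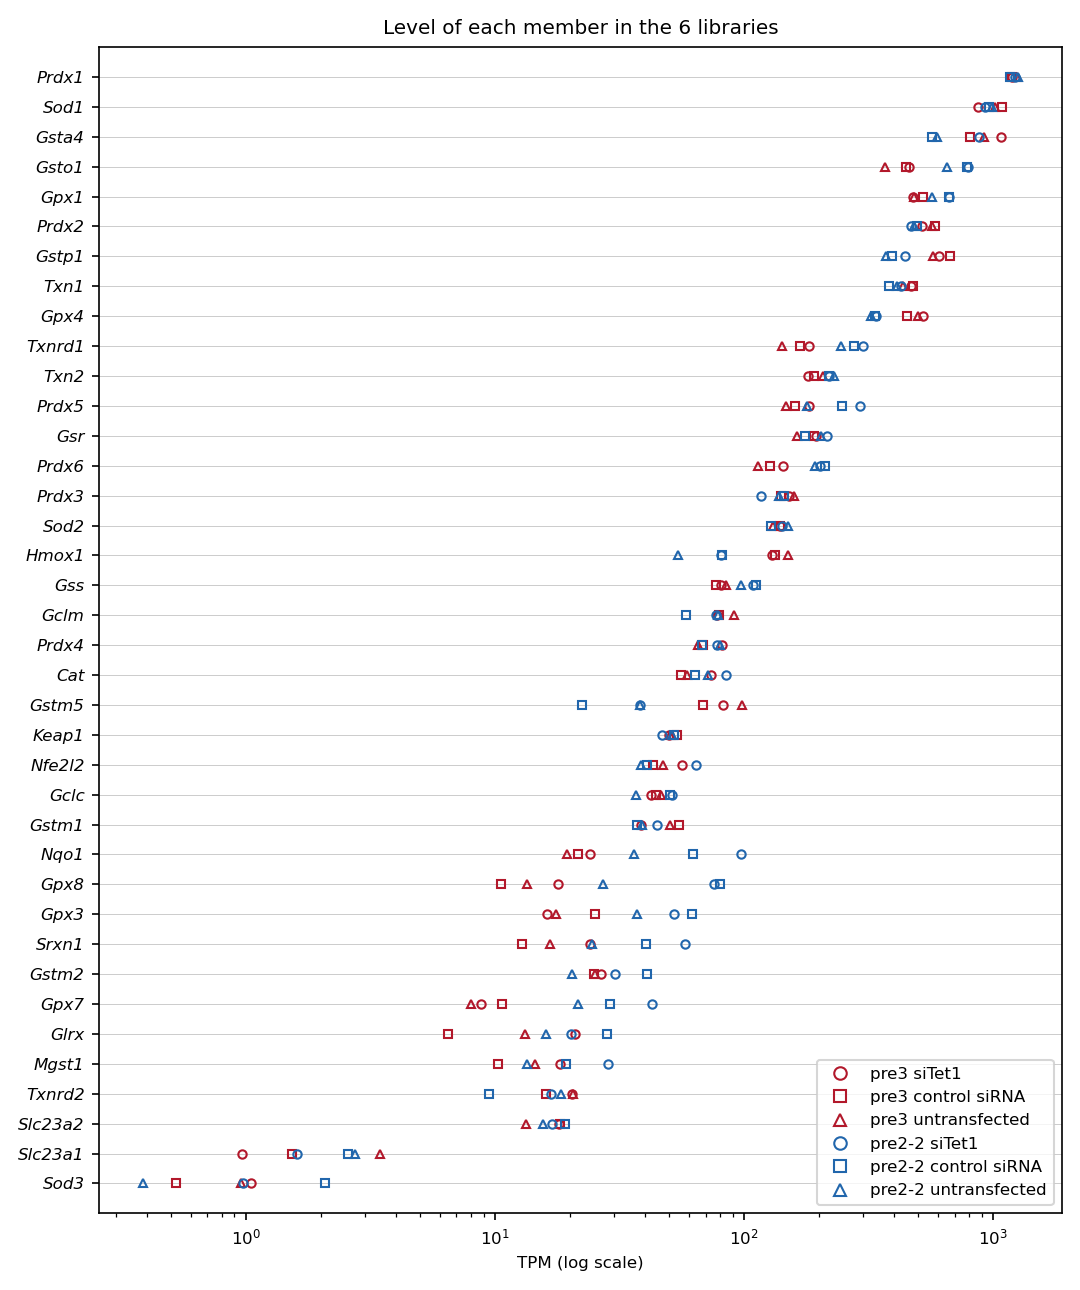
Level in TPM (logarithmic axis) of each of the 38 members in the 6 libraries, ordered by mean level, with 1 symbol per library. Prdx1, at a mean of 1211 TPM, and Keap1 show tightly bunched libraries, whereas those of Gpx7, Gpx8, Nqo1 and Gstm5 spread out by line, and Sod3 and Slc23a1 lie at the bottom.

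Of the vitamin C transporters, Slc23a2 (SVCT2), the form most cell types use, was the one with enough counts to be tested. It stood at 57.4 and 51.1 CPM in siTet1-transfected pre3 and pre2-2, against 57.6 and 57.7 CPM with control siRNA and 44.6 and 48.6 CPM without transfection. Both untransfected values lay below all 4 transfected ones. The log2 differences were 0.21 for siTet1 from untransfected cells (SE 0.17, edgeR adjusted p = 0.562) and 0.30 for control siRNA from untransfected cells (SE 0.17, edgeR adjusted p = 0.664), neither of which passed the test. Slc23a1 (SVCT1), known mainly from epithelia of kidney and gut, had 3 and 5 counts in siTet1-transfected pre3 and pre2-2, against 4 and 7 counts with control siRNA and 11 and 10 counts without transfection, and was too low to be tested.

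Carriers of dehydroascorbate had higher levels per transcript length than Slc23a2, at 432 to 692 TPM for Slc2a1 and 125 to 184 TPM for Slc2a3, against 13.3 to 19.0 TPM. Slc2a1 (GLUT1), which also imports glucose, stood at 876, 798 and 886 CPM in pre3 with siTet1, control siRNA and no transfection, against 839, 538 and 547 CPM in pre2-2, and was called higher in pre3 (log2 difference 0.44, SE 0.10, edgeR adjusted p = 0.00096). Slc2a3 (GLUT3) stood at 319, 247 and 271 CPM in pre3 and 344, 319 and 310.4 CPM in pre2-2 under the same treatments. Gulo, the enzyme of the last step of ascorbate synthesis in mouse liver, had at most 2.56 CPM in any library, Slc23a3 at most 1.01 CPM, and Slc2a2 (GLUT2) and Rgn, the gluconolactonase of the same pathway, had no read in any library. Of the 9 tested genes listed under ascorbate handling and dehydroascorbate carriage, 4 were called higher in pre3 than in pre2-2 (Slc2a1, Slc2a8, Aldh2 and Ucp2), beside 14.4% of all genes tested, with 0 called lower and 0 called in any comparison between treatments. Slc2a1 and Slc2a8 belong to the SLC2 family, whereas Aldh2, an aldehyde dehydrogenase, and Ucp2 were listed more loosely. A role of these genes in ascorbate handling was not tested.

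With siTet1 against control siRNA, 1 of the 36 members that could be tested was called, and 0 were called lower. It was Gsta4, at 509 and 395 CPM in siTet1-transfected pre3 and pre2-2, against 383 and 257 CPM in the same lines with control siRNA. Both siTet1 libraries lay above both control siRNA libraries, and the fold was 1.43 (log2 difference 0.52, SE 0.11, edgeR adjusted p = 0.0161), with 0.41 within pre3 and 0.62 within pre2-2. The untransfected cells stood at 462 CPM in pre3 and 280.1 CPM in pre2-2, overlapping the siTet1 libraries. The threshold for a call, an adjusted p under 0.05, was met by 1.58% of the 11048 genes tested, 1.15% higher and 0.434% lower; 1 of 36 members is 2.78%. The log2 differences of the members had a median of 0.06, against 0.00 over all genes, with 23 above and 13 below 0. The call ended without the pre2-2 siTet1 library (log2 difference 0.38, edgeR adjusted p = 0.82), without the pre2-2 control siRNA library (0.50, edgeR adjusted p = 0.415) and without the pre3 control siRNA library (0.51, edgeR adjusted p = 0.409). In the same comparison, 8 of the 9 tested interferon-response genes were called lower, 2 of the 6 tested pluripotent-cell markers higher and 1 of the 9 tested fibroblast markers higher, and their part in the Gsta4 difference was not tested.

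The other members did not pass the test. Nfe2l2 had 69.1 and 74.9 CPM in siTet1-transfected pre3 and pre2-2, against 52.8 and 48.1 CPM with control siRNA and 61.5 and 47.0 CPM without transfection. Its siTet1 libraries lay above the other 4, with a log2 difference of 0.52 from control siRNA (SE 0.17, edgeR adjusted p = 0.171). The 4-library fit without the untransfected cells called Nfe2l2, Srxn1 and Gsta4, 3 members, among 613 genes, 5.67% of the 10817 it tested. Cat, at 93.6 and 102 CPM with siTet1 in pre3 and pre2-2 against 70.9 and 76.9 CPM with control siRNA, also had siTet1 libraries above the other 4 (log2 difference 0.40, SE 0.15, edgeR adjusted p = 0.246). Sod1 had its lowest values with siTet1, at 277 and 281 CPM in pre3 and pre2-2, against 347 and 294 CPM with control siRNA (log2 difference -0.19, SE 0.12, edgeR adjusted p = 0.589). Keap1, at 81.9 and 73.1 CPM with siTet1 in pre3 and pre2-2 against 89.6 and 81.0 CPM with control siRNA, had a log2 difference of -0.14 (SE 0.15, edgeR adjusted p = 0.822).

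With siTet1 against untransfected cells, 3 of the 36 tested members were called higher and 0 lower: Nqo1, Srxn1 and Gpx8. That is 8.33% of them, beside 6.55% of all genes tested, of which 4.92% were higher and 1.63% lower. The median log2 difference was 0.09, against 0.01 over all genes, with 23 members above and 13 below 0. These comparisons share their siTet1 and untransfected libraries with those in the neighbouring paragraphs.

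Nqo1, which reduces quinones by 2 electrons and is a textbook NRF2 target, stood at 18.6 CPM in siTet1-transfected pre3 and 71.2 CPM in siTet1-transfected pre2-2, against 15.9 CPM in untransfected pre3 and 27.6 CPM in untransfected pre2-2. Control siRNA gave 16.5 CPM in pre3 and 46.1 CPM in pre2-2. The 3 pre3 libraries were close to each other, while those of pre2-2 were spread. The log2 difference from untransfected cells was 0.99 (SE 0.24, edgeR adjusted p = 0.0107), with 0.22 within pre3 and 1.34 within pre2-2.

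Srxn1 stood at 30.9 CPM in siTet1-transfected pre3 and 70.7 CPM in siTet1-transfected pre2-2, against 22.6 CPM in untransfected pre3 and 31.1 CPM in untransfected pre2-2. With control siRNA it had 16.5 CPM in pre3 and 49.6 CPM in pre2-2. Within each line the siTet1 library was the highest. The log2 difference from untransfected cells was 0.90 (SE 0.22, edgeR adjusted p = 0.014), with 0.43 within pre3 and 1.16 within pre2-2, and that from control siRNA was 0.64 (SE 0.22, edgeR adjusted p = 0.202).

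Gpx8 stood at 9.04 CPM in siTet1-transfected pre3 and 36.1 CPM in siTet1-transfected pre2-2, against 7.18 CPM in untransfected pre3 and 13.6 CPM in untransfected pre2-2. Control siRNA gave 5.33 CPM in pre3 and 38.5 CPM in pre2-2, so in pre2-2 both transfected libraries were high. The log2 difference from untransfected cells was 1.1 (SE 0.33, edgeR adjusted p = 0.0429), with 0.30 within pre3 and 1.35 within pre2-2.

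All 3 calls ended without the pre2-2 untransfected library, where the log2 differences were 0.38 for Nqo1, 0.35 for Srxn1 and 0.04 for Gpx8, and without the pre2-2 siTet1 library, where they were 0.46, 0.78 and 1.06. Without the pre3 untransfected library, the log2 differences were 1.30 for Nqo1, 1.22 for Srxn1 and 1.46 for Gpx8. In pre2-2 the fibroblast markers summed to 2960 CPM with siTet1 and 3643 CPM with control siRNA, against 1480 CPM without transfection. That sum was highest with control siRNA, as was Gpx8, while Nqo1 and Srxn1 were highest with siTet1. In pre3 the markers summed to 1053 and 942 against 769 CPM. Of the 9 tested, 5 were called higher with siTet1 than without transfection. In the same comparison 6 of the 9 tested interferon-response genes were called higher, their sum being 81.9 CPM in siTet1-transfected pre3 and 257 CPM in siTet1-transfected pre2-2, against 20.5 and 157 CPM without transfection, and 2 of the 6 tested pluripotent-cell markers were called higher. The part of these lists in the 3 calls was not tested.

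Among members not called, Prdx5 had a log2 difference of 0.46 from untransfected cells (SE 0.16, edgeR adjusted p = 0.096), with 62.2 and 93.7 CPM in siTet1-transfected pre3 and pre2-2 against 52.8 and 60.2 CPM without transfection. Txnrd1 had the same order of treatments in both lines, with 308 and 480.1 CPM in siTet1-transfected pre3 and pre2-2, 278 and 445 CPM with control siRNA, and 255 and 409 CPM without transfection. Its log2 difference between siTet1 and untransfected cells was 0.25 (SE 0.11, edgeR adjusted p = 0.2). Prdx1 was lower in both siTet1 libraries, at 841 CPM in pre3 and 813 CPM in pre2-2, than in the untransfected ones, at 926 and 878 CPM, and its log2 difference of -0.13 did not pass the test (SE 0.09, edgeR adjusted p = 0.51). The 4 genes of glutathione synthesis and reduction had log2 differences between -0.19 and 0.12, none called.

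**Figure D2:**
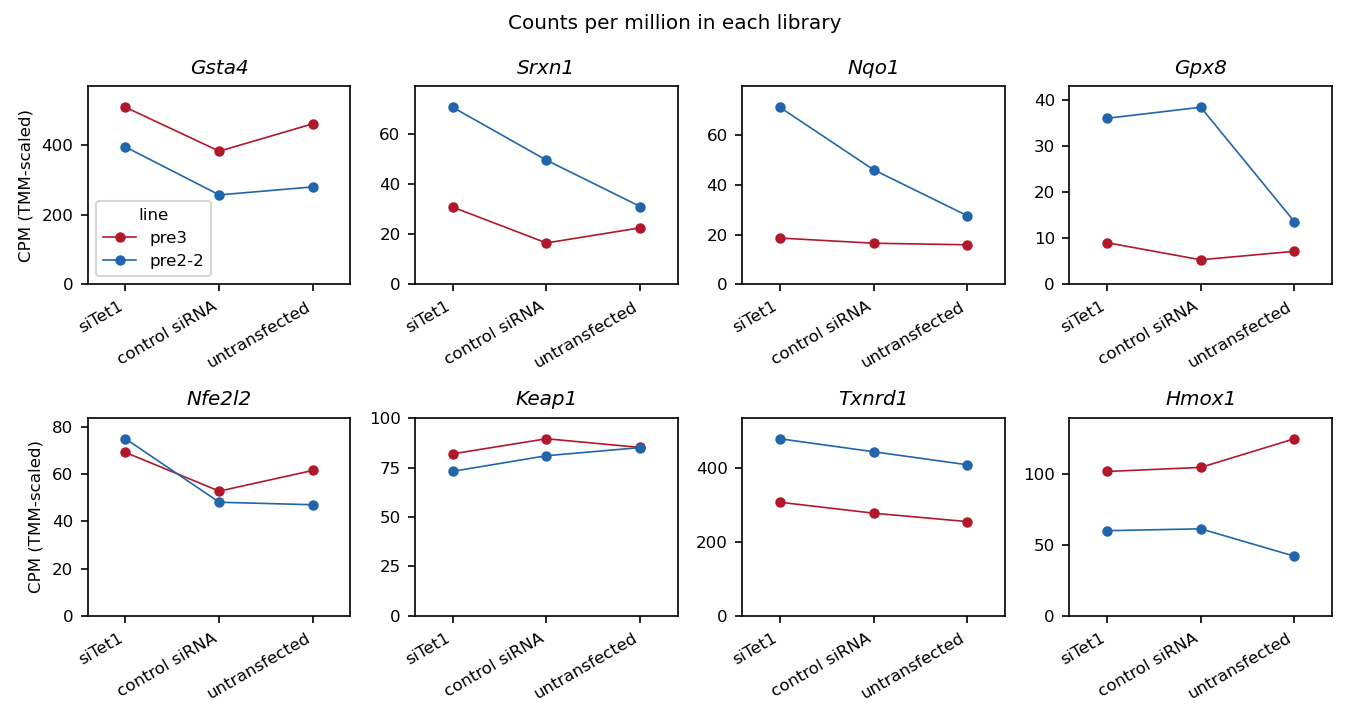
Level in CPM of Gsta4, Srxn1, Nqo1, Gpx8, Nfe2l2, Keap1, Txnrd1 and Hmox1 with siTet1, control siRNA and no transfection, 1 point per library, with a line joining the libraries of a cell line. Gsta4 was higher with siTet1 than with control siRNA in both lines, and Nqo1 reached 71.2 CPM in siTet1-transfected pre2-2 while its pre3 libraries stayed between 15.9 and 18.6 CPM.

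With control siRNA against untransfected cells, 0 of the 36 tested members were called by edgeR, beside 1.48% of all genes, of which 1.38% were higher and 0.0996% lower. At an unadjusted p under 0.05 there were 5 members (Gclm, Gpx3, Gpx8, Txnrd2 and Gstm5) of 36, beside 1016 of the 11048 genes. With limma-voom 1 member, Gpx8, was called, among 241 genes (2.18% of those tested). The median log2 difference of the members was -0.01, against 0.00 over all genes, with 17 above and 19 below 0. The biggest was that of Gpx8 (1.01, SE 0.33, edgeR adjusted p = 0.187). Gpx3 stood at 18.1 and 42.5 CPM in control siRNA-transfected pre3 and pre2-2, against 13.3 and 26.4 CPM without transfection (log2 difference 0.61, SE 0.24, edgeR adjusted p = 0.363). Gstm5 went the other way, with 30.9 and 9.62 CPM in control siRNA-transfected pre3 and pre2-2 against 46.7 and 17.1 CPM without transfection (log2 difference -0.66, SE 0.24, edgeR adjusted p = 0.265).

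**Figure D3:**
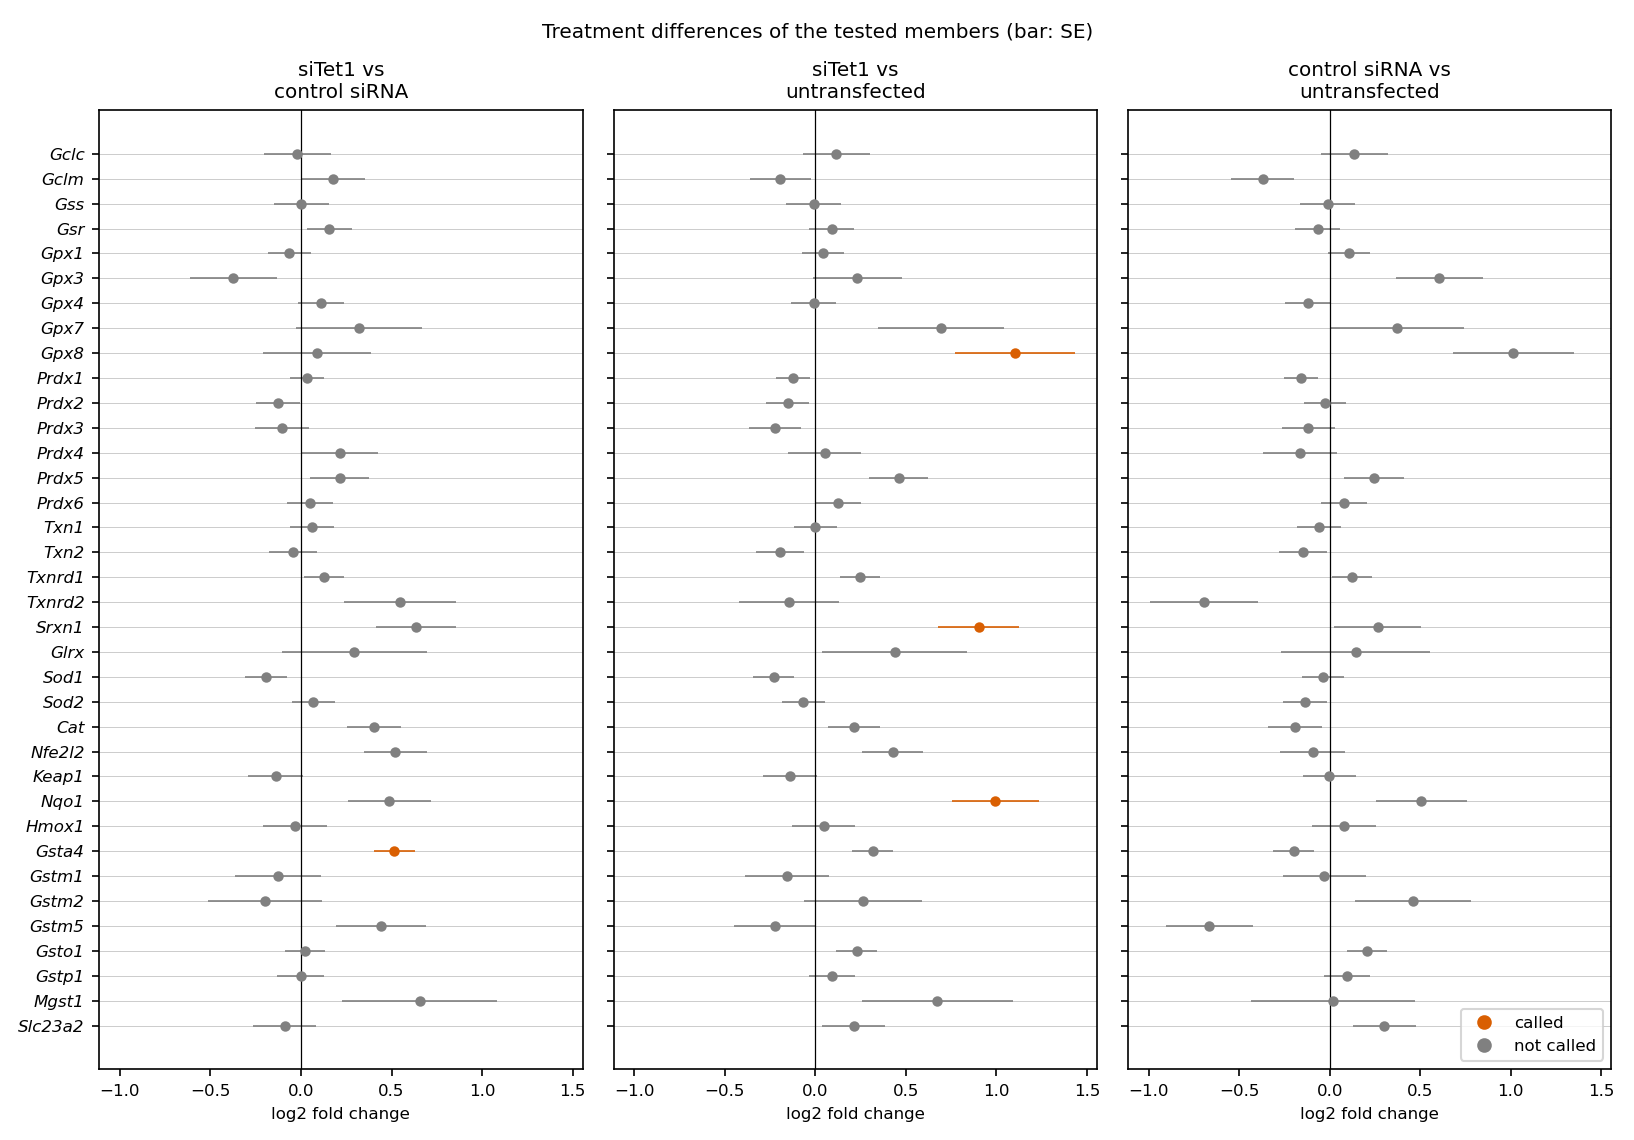
Log2 difference ± SE of the 36 tested members for siTet1 against control siRNA, siTet1 against untransfected and control siRNA against untransfected, from the edgeR fit, with called members in orange. The called members are Gsta4 (0.52) in the first comparison and Gpx8 (1.1), Srxn1 (0.90) and Nqo1 (0.99) in the second, and the third has none.

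More members were called between the lines than between treatments. Between pre3 and pre2-2, 16 of the 36 tested members were called, 6 higher and 10 lower in pre3. That is 44.4%, beside 30.2% of all genes tested, of which 14.4% were higher and 15.8% lower, so a large part of the transcriptome differed between these isolates. The median log2 difference of the members was 0.01, against 0.00 over all genes, with 18 above and 18 below 0, and the median of its size was 0.32 against 0.27. In 18 of the 36 members the 3 pre3 libraries did not overlap the 3 pre2-2 libraries, 8 lying above and 10 below, and 37% of all genes tested were of this kind.

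The glutathione peroxidases were called in all 5 measured members, 1 higher and 4 lower in pre3, beside 30.2% of all genes tested. Gpx8 stood at 9.04, 5.33 and 7.18 CPM in pre3 with siTet1, control siRNA and no transfection, against 36.1, 38.5 and 13.6 CPM in pre2-2. Gpx7 stood at 5.32, 6.4 and 5.13 CPM in pre3 against 24.4, 16.7 and 12.8 CPM in pre2-2. In both endoplasmic reticulum enzymes every pre3 library was below every pre2-2 library, with log2 differences of -1.97 for Gpx8 (SE 0.28, edgeR adjusted p = 4.9e-06) and -1.65 for Gpx7 (SE 0.30, edgeR adjusted p = 0.000159).

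Gpx3 had 11.7, 18.1 and 13.3 CPM in pre3 with siTet1, control siRNA and no transfection, against 35.6, 42.5 and 26.4 CPM in pre2-2 (log2 difference -1.27, SE 0.20, edgeR adjusted p = 2.83e-05). Gpx1 was lower by less, at 248, 269.7 and 265 CPM in pre3 against 327, 330.0 and 291 CPM in pre2-2 (log2 difference -0.28, SE 0.10, edgeR adjusted p = 0.0298). Gpx4 was the member of this group that was higher, at 244, 210.0 and 246 CPM in pre3 against 149, 149 and 149.6 CPM in pre2-2 (log2 difference 0.64, SE 0.10, edgeR adjusted p = 2.6e-05). Its 3 pre2-2 libraries were almost equal. Marker lists moved between the lines as well. Of the tested markers, 8 of 9 for fibroblasts, 4 of 4 for endothelial cells and 8 of 9 of the interferon response were called lower in pre3, while 4 of 6 for pluripotent cells were called higher and 1 lower. The part of any of these lists in the differences between the lines was not tested.

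Of the 6 peroxiredoxins, 3 were called, beside 30.2% of all genes tested. Prdx6 stood at 167, 147 and 140.0 CPM in pre3 with siTet1, control siRNA and no transfection, against 222, 234 and 220.3 CPM in pre2-2 (log2 difference -0.58, SE 0.10, edgeR adjusted p = 0.000109). Prdx5 stood at 62.2, 54.4 and 52.8 CPM in pre3 against 93.7, 80.0 and 60.2 CPM in pre2-2 (log2 difference -0.45, SE 0.13, edgeR adjusted p = 0.0123). The Prdx5 libraries of the lines overlapped, since siTet1-transfected pre3 exceeded untransfected pre2-2, and 15.5% of the 50-base words of its transcripts also occur in the neighbouring gene Trmt112, so reads could be shared. Prdx2 was higher in pre3, at 243, 271 and 281 CPM against 207, 222 and 222 CPM in pre2-2 (log2 difference 0.29, SE 0.10, edgeR adjusted p = 0.0248). Prdx1, with a log2 difference of 0.07, was not called, and neither were Prdx4 (edgeR adjusted p = 0.999) and Prdx3, at 0.26 (edgeR adjusted p = 0.107). The calls of Gpx1, Prdx2 and Prdx5 each ended when any 1 of the 4 transfected libraries was left out.

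In the thioredoxin group, the cytosolic reductase and sulfiredoxin were lower in pre3. Txnrd1 stood at 308, 278 and 255 CPM in pre3 with siTet1, control siRNA and no transfection, against 480.1, 445 and 409 CPM in pre2-2 (log2 difference -0.67, SE 0.09, edgeR adjusted p = 2.58e-06), and the difference was -0.64, -0.68 and -0.68 within those treatments. Srxn1 stood at 30.9, 16.5 and 22.6 CPM in pre3 against 70.7, 49.6 and 31.1 CPM in pre2-2 (log2 difference -1.08, SE 0.19, edgeR adjusted p = 8.34e-05), and the difference within those treatments was -1.17, -1.53 and -0.45. The Txnrd1 gap was thus alike under the 3 treatments, while that of Srxn1 was widest with control siRNA. Txn1, at 244, 247 and 241 CPM in pre3 against 211, 191 and 213 CPM in pre2-2, did not overlap between lines and fell short of the call (log2 difference 0.25, SE 0.10, edgeR adjusted p = 0.0554). Txn2, Txnrd2 and Glrx had log2 differences of -0.13, 0.43 and -0.57 and were not called.

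Transcripts of NRF2 and its inhibitor were not called, while Nqo1 and Hmox1, 2 textbook NRF2 targets, were called in opposite directions. Txnrd1 (-0.67) and Srxn1 (-1.08) of the thioredoxin group were called lower in pre3, as Nqo1 was. Nfe2l2 had a log2 difference of 0.13 (SE 0.14, edgeR adjusted p = 0.543) and Keap1 one of 0.10 (SE 0.12, edgeR adjusted p = 0.582). Nqo1 stood at 18.6, 16.5 and 15.9 CPM in pre3 with siTet1, control siRNA and no transfection, against 71.2, 46.1 and 27.6 CPM in pre2-2 (log2 difference -1.45, SE 0.20, edgeR adjusted p = 3.82e-06). Hmox1 ran the opposite way, at 102, 104 and 125 CPM in pre3 against 60.0, 61.2 and 42.0 CPM in pre2-2 (log2 difference 1.04, SE 0.14, edgeR adjusted p = 3.95e-06). In both genes the libraries of the lines did not overlap. Gclc and Gclm, which code for subunits of glutamate-cysteine ligase and are likewise known NRF2 targets, had log2 differences of 0.04 and 0.29 and were not called, nor were Gss (-0.30) and Gsr (-0.04).

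Of the 7 glutathione transferases, 3 were called higher and 1 lower in pre3, beside 14.4% and 15.8% of all genes tested. Gstm5 stood at 37.2, 30.9 and 46.7 CPM in pre3 with siTet1, control siRNA and no transfection, against 16.4, 9.62 and 17.1 CPM in pre2-2 (log2 difference 1.41, SE 0.20, edgeR adjusted p = 3.47e-06). Gsta4 stood at 509, 383 and 462 CPM in pre3 against 395, 257 and 280.1 CPM in pre2-2 (log2 difference 0.55, SE 0.09, edgeR adjusted p = 5.63e-05), with some overlap, since siTet1-transfected pre2-2 exceeded control siRNA-transfected pre3. Gsto1 was lower, at 265, 257 and 225 CPM in pre3 against 433, 434 and 372 CPM in pre2-2 (log2 difference -0.73, SE 0.09, edgeR adjusted p = 8.22e-07). Gstp1 stood at 222, 246 and 223 CPM in pre3 against 155, 138 and 135 CPM in pre2-2 (log2 difference 0.69, SE 0.10, edgeR adjusted p = 1.2e-05). Gstp1 shares 33.7% of its 50-base words with its near-copy Gstp2, so the split between them is uncertain. With their counts summed, the log2 difference was 1.09 (edgeR adjusted p = 8.14e-09). Gstm1, Gstm2 and Mgst1 were not called.

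None of the 3 tested genes for superoxide dismutases and catalase was called between the lines, beside 30.2% of all genes tested. Sod1, Sod2 and Cat had log2 differences of 0.12, 0.05 and -0.14, and the transporter Slc23a2 had one of 0.02 (SE 0.14, edgeR adjusted p = 0.949), not called either. Apart from Gpx1, Prdx2 and Prdx5, the other 13 calls between the lines were made in each of the 6 fits that left out 1 library.

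**Figure D4:**
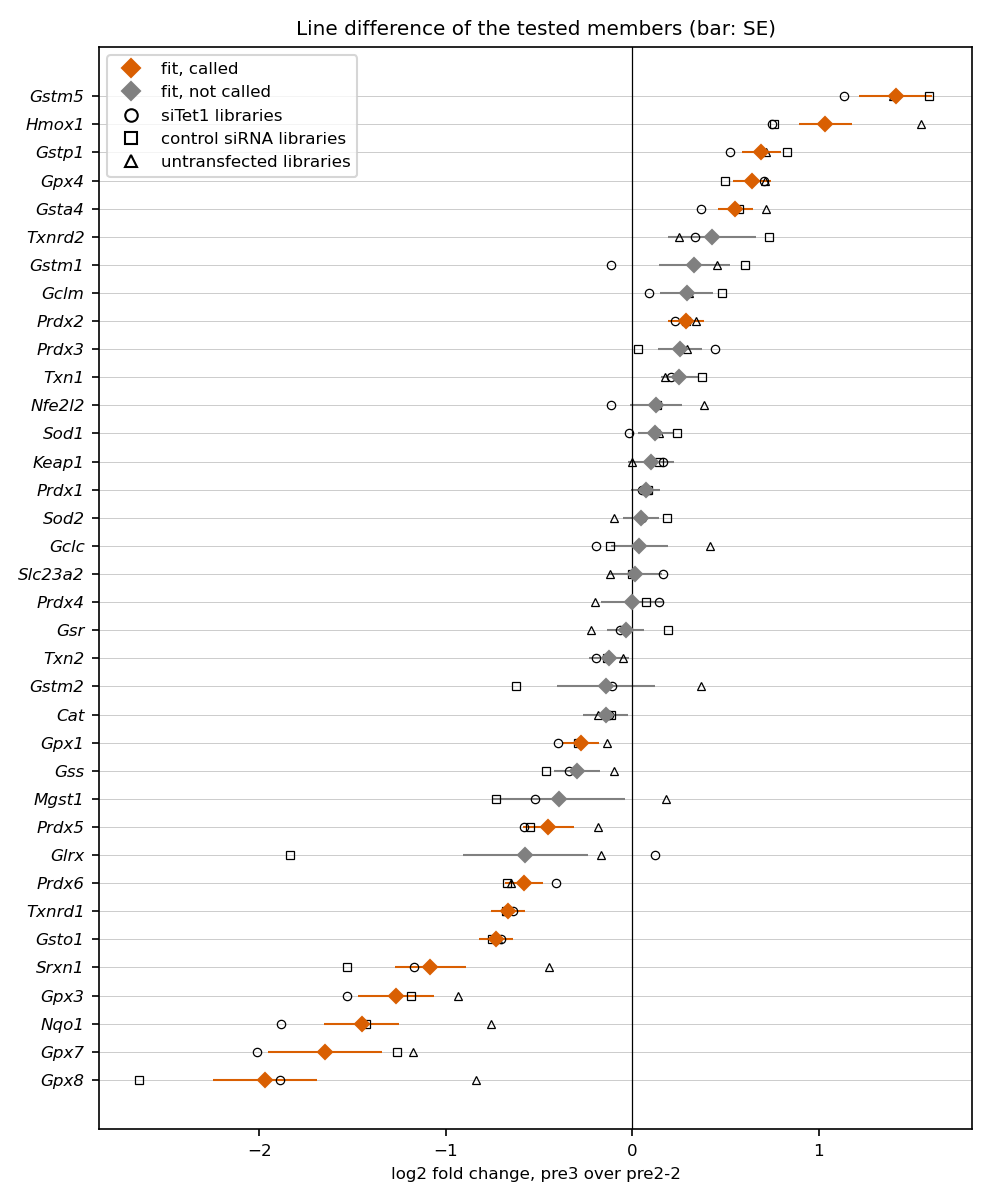
Log2 difference between pre3 and pre2-2 for the 36 tested members, with diamonds and bars for the edgeR estimate ± SE and open symbols for the difference within each treatment. Gpx8 (-1.97), Gpx7 (-1.65), Nqo1 (-1.45) and Gpx3 (-1.27) lie farthest below 0, and Gstm5 (1.41) and Hmox1 (1.04) farthest above.

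Whether the lines responded differently was tested with 1 treatment of each line set against the other 2 pooled, which assumes that the pooled libraries vary like replicates. For siTet1 against the rest, edgeR called 0 members, and 0 of all genes (0%), with 0 members and 270 genes at an unadjusted p under 0.05. For transfected against untransfected cells it called 0 members and 1 gene of all tested (0.00905%), with 2 members and 603 genes at an unadjusted p under 0.05. The members were Hmox1 and Gpx8. The mean log2 difference of Hmox1 between transfected and untransfected cells was -0.27 in pre3 and 0.52 in pre2-2, with a fitted difference of -0.80 (SE 0.24, edgeR adjusted p = 0.884). For Gpx8 the values were -0.04 in pre3 and 1.39 in pre2-2, with a fitted difference of -1.45 (SE 0.58, edgeR adjusted p = 0.884). A different response of the lines was therefore not called for any member.

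Around the members, 147 other genes of the same pathways were listed by role, of which 104 could be tested. With siTet1 against control siRNA, 2 were called higher and 0 lower (1.92% of them), beside 1.58% of all genes tested. Taldo1, the transaldolase of the pentose phosphate pathway that feeds NADPH supply, stood at 118 and 148 CPM in siTet1-transfected pre3 and pre2-2, against 67.7 and 85.5 CPM with control siRNA and 100.02 and 118 CPM without transfection (log2 difference 0.79, SE 0.14, edgeR adjusted p = 0.00224 against control siRNA). Abcc4, an exporter that can carry glutathione conjugates, stood at 124 and 97.4 CPM against 80.5 and 61.2 CPM with control siRNA (log2 difference 0.64, SE 0.15, edgeR adjusted p = 0.0212), and at 95.9 and 83.1 CPM without transfection. In each gene the control siRNA library was the lowest of its line. Both calls ended without the pre2-2 siTet1 library or either control siRNA library (edgeR adjusted p 0.0675 to 0.45), and that of Abcc4 also without the pre3 siTet1 library (edgeR adjusted p = 0.166). With control siRNA against untransfected cells edgeR called 0 of the 104, beside 1.48% of all genes tested. At an unadjusted p under 0.05 there were 10 of the 104, beside 1016 of the 11048 genes.

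With siTet1 against untransfected cells, 6 of the 104 were called higher and 2 lower (7.69%), beside 6.55% of all genes tested (4.92% higher and 1.63% lower). The higher ones were Ptges (log2 difference 1.20), a glutathione-dependent prostaglandin synthase, Anpep (1.1), an aminopeptidase, Msrb3 (1.03), a methionine sulfoxide reductase, Cyba (0.74), a subunit of NADPH oxidases, Fth1 (0.43), the ferritin heavy chain, and Sqstm1 (0.38), the p62 protein that binds KEAP1. The lower ones were Idh2 (-0.62) and Mthfd2 (-0.55), both mitochondrial dehydrogenases. Without the pre2-2 untransfected library the values were 0.80, 0.35, 0.07, 0.40, 0.31 and 0.23 for the 6 higher genes and -0.30 for Mthfd2, and those 7 calls ended. The call of Idh2 ended without the pre3 untransfected library (-0.44, edgeR adjusted p = 0.0549) and without the pre3 siTet1 library (-0.52, edgeR adjusted p = 0.184). The 7 other calls also ended without the pre2-2 siTet1 library, those of Mthfd2, Cyba and Sqstm1 without the pre3 siTet1 library, and those of Fth1 and Sqstm1 without either control siRNA library.

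Between the lines, 22 of the 104 were called higher and 11 lower in pre3 (31.7%), close to the 30.2% of all genes. The 10 with the smallest adjusted p were, higher in pre3, Gstp2 (log2 difference 2.71), Idh2 (1.33), Mgst3 (1.17), the oxidase Ero1l of the endoplasmic reticulum (0.84), the aldehyde dehydrogenase Aldh2 (0.81) and the transketolase Tkt (0.55), and, lower in pre3, Msrb3 (-1.77), Anpep (-1.51), Ugdh (-1.09) and the selenoprotein Sepw1 (-0.85). Their edgeR adjusted p ran from 2.01e-11 for Gstp2 to 0.000104 for Tkt. Gstp2 stood at 99.5, 86.4 and 136 CPM in pre3 with siTet1, control siRNA and no transfection, against 23.9, 13.2 and 12.8 CPM in pre2-2, with the same shared sequence as noted for Gstp1. Idh2 stood at 151, 179.6 and 256 CPM in pre3 against 65.6, 77.4 and 87.8 CPM in pre2-2, so that in both lines its lowest value was with siTet1.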

How the data were processed

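RNA was extracted with Trizol and made into libraries with the TruSeq kit, per the labels' protocols. The deposited expected counts per gene were made by the authors with RSEM 1.1.21 on mm9, per the submitters' processing notes, and carry no normalization; 18.7 to 21.4% of values per library were not whole (tolerance 0.005). The deposited fraction per gene is the authors' estimate of a gene's share of transcripts and was scaled to TPM. Aligner settings are not given in the sources used here. A series-wide TPM table was not used, and 1 of its columns matched no sample.

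For testing, the counts were rounded to whole numbers. The tool was edgeR 4.0.16 in R 4.3.3, with TMM factors of 0.982 to 1.01, filterByExpr with a minimum count of 10, the two-sided quasi-likelihood test of a model with line and treatment over all 6 libraries, and Benjamini-Hochberg adjustment over the 11048 genes kept. Of the 38 members 36 were kept; Sod3 and Slc23a1 were too low. SE is the log2 difference over the square root of F. Log2 differences within a line or treatment were taken from the log2 CPM of the libraries. The fitted differences weight libraries by their counts, so the within values need not average to them. Residual degrees of freedom were 2, so the spread rests on a prior estimated over all genes (prior degrees of freedom 23.2). Exact permutation over libraries cannot go below a p of 0.333 with 2 against 2 or 0.1 with 3 against 3. The same-numbered libraries are the same cell line, and their deviations from the treatment means correlated at 0.667 to 0.772, so line was kept as the replicate block. Shared sequence was counted as 50-base words of the reference transcripts. Counting floors cover counting error only, as no molecular identifiers are present. DESeq2 1.42.0, limma-voom (limma 3.58.1), other scalings, no filter, no block and leaving out each library were alternatives. All members are named, with full statistics where called, and up to 10 called genes of the other pathway lists per comparison. The members and lists were chosen with earlier results of these data known.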

Additional observations from a re-analysis of the deposited data

How the results depend on the processing

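The 38 members rest on 1 library per line and treatment, so the count of calls moved widely with the fit. For siTet1 against control siRNA (175 genes, 1 member), DESeq2 called 24 genes and 0 members, no low-count filter 292 genes, the replicate block on the 4 libraries of these treatments 613 genes and 3 members, and no replicate block 0 genes and 0 members (178 genes at an unadjusted p under 0.05). Leaving out 1 library gave 34 to 632 genes and 0 to 3 members. For siTet1 against untransfected cells (724 genes, 3 members), DESeq2 called 87 genes and 0 members, no replicate block 0 genes and 0 members (353 at an unadjusted p under 0.05), and leaving out 1 library 172 to 1900 genes and 0 to 6 members. For control siRNA against untransfected cells (164 genes, 0 members), DESeq2 called 32 genes, no low-count filter 259 genes and 1 member, limma-voom 1 member, no replicate block 0 genes (84 at an unadjusted p under 0.05), and leaving out 1 library 27 to 733 genes and 0 to 2 members. Of the calls in this comparison 93.3% were higher, against 46.1% without the pre2-2 untransfected library. For pre3 against pre2-2 (3335 genes, 16 members), DESeq2 called 1429 genes and 13 members, and leaving out 1 library gave 2152 to 3631 genes and 13 to 18 members. For the interaction of line with siTet1 (0 genes), no low-count filter gave 7 genes and leaving out 1 library 0 to 5; for that with transfection (1 gene), DESeq2 gave 5, limma-voom 0 and leaving out 1 library 0 to 4. The Tet1 difference of -0.67 had an adjusted p of 0.103 with DESeq2 (-0.67) and of 1 with no replicate block (-0.67, edgeR), and ran from -0.76 to -0.57 with 1 library left out. The interaction with siTet1 could not be fitted without a siTet1 library, nor that with transfection without an untransfected library.

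Among single named genes, 383 of 469 recomputed values kept direction and side of the threshold, 86 kept direction only and 0 turned round. Those kept were 272 of 287 between the lines, but 23 of 39 for siTet1 against control siRNA. For siTet1 against untransfected cells they were 88 of 143. These genes had been picked because the main fit called them. DESeq2 gave Gsta4 0.51 against control siRNA (adjusted p 0.302), and Nqo1, Srxn1 and Gpx8 adjusted p of 0.535, 0.503 and 0.832 against untransfected cells, and it did not call Gpx1, Prdx2 and Prdx5 between the lines. Why DESeq2 called fewer genes was not tested. Summing Gstp1 with Gstp2 was chosen after seeing the data. Scaling by library totals or RLE moved the median of all genes by under 0.1. Sod3, with 1 to 4 counts, and Slc23a1, with 3 to 11, were too low to be tested at this depth.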
